A study of Mus musculus with 16 samples.

Results

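The 44 collagen genes of the mouse were examined in 16 ATAC-seq peak lists, to see which of their promoters lay in open chromatin in each tissue and whether this differed between fed and fasting mice. ATAC-seq finds open DNA as the places where the Tn5 transposase can insert sequencing adapters. Members were the protein-coding genes of GENCODE vM21 on GRCm38 whose symbol is Col, a number, a and a number, 44 of 21938 protein-coding genes. The libraries came from kidney, lung, liver, spleen, heart, muscle and both white and brown adipose of male C57BL/6 mice that ate freely (fed) or went without food for 24 h (fasting). The mice were 12 weeks old when bought, and tissue of 3 mice was pooled for each tissue and state. There was 1 library per tissue and state and no replicate library, and all tissues of a state came from the same mice, so that p-values speak of these pools only.

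Collagens are the main structural proteins of the extracellular matrix. Each molecule is a triple helix of alpha chains, and the chains of 1 type are often the products of different genes. Fibrillar collagens form the banded fibers of connective tissue, type IV chains form the network of basement membranes, and type VI chains form beaded filaments around cells. The FACIT collagens (fibril-associated collagens with interrupted triple helices) sit on fibers, type VII anchors epithelium, types VIII and X form short-chain networks, and the transmembrane collagens stay in the cell surface. Multiplexins are linked to basement membranes and release fragments such as endostatin. By these classes the members were 11 fibrillar, 6 basement membrane, 6 beaded filament, 9 FACIT, 1 anchoring fibril, 3 short chain, 4 transmembrane and 2 multiplexin genes, with Col26a1 and Col28a1 left as other.

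A promoter was taken as open when the strongest peak with its summit within 3000 bp of any annotated start of the gene had q under 0.01, and as listed when any deposited peak lay there. Its rank is the percentile of that peak's p-value within the library's own list, with 100 for the strongest peak and 0 for a promoter without any. Rank was used because p and fold are not scaled between libraries. A rank is a place in a list and not an amount of open chromatin, and weak peaks with equal p share a rank. In bulk tissue, fewer cells of a type with an open promoter and less open chromatin per cell cannot be told apart. The background tag number, which is proportional to depth, ran from 2.8 in fed liver to 12.77 in fed brown adipose, with the widest gaps between states in brown adipose (12.77 fed and 6.76 fasting), white adipose (10.02 and 5.87) and muscle (6.39 and 10.56). Of 8 lists of tissue marker genes, 7 had their highest mean rank in their own tissue. The white adipose list was at 89.8 in white and 92.5 in brown adipose, so that it did not separate the adipose tissues. The muscle list had its second highest mean in white adipose (72.9, against 93.0 in muscle), where the skeletal actin gene Acta1 ranked 93.7.

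All 44 collagen genes were listed in at least 1 library, and 22 of them (50%) were open in all 16, against 59.9% of all protein-coding genes. Per library, between 34 collagen promoters (fed spleen and fasting kidney) and 42 (fasting liver) were open, with a median of 39. That was 77.3% to 95.5% of the members, against 69.3% to 77.5% of all genes. Their peaks were weaker than those of other genes. The median rank over members and libraries was 71.6, against 92.0 over the 19719 genes listed in any library. Collagen genes had a median of 4 annotated starts and all genes a median of 3, and many of the collagen peaks were not close to any start. Of 626 strongest peaks, 385 (61.5%) had their summit within 1000 bp of any annotated start and 276 (44.1%) within 300 bp. These shares were not taken over all genes. When only starts of APPRIS principal transcripts (the isoform judged to be the main one) and a window of 1000 bp were used, 11 of 44 promoters (25%) were open in all 16 libraries, against 52.5% of all genes. By this measure 3 were open in none, namely Col6a4, Col17a1 and Col28a1, against 17.1% of all genes open in none. The 11 were Col1a1, Col11a2, Col27a1, Col4a1, Col4a2, Col6a2, Col12a1, Col22a1, Col8a2, Col23a1 and Col25a1. Between 21 (fed spleen) and 35 (fasting heart) collagen promoters were open per library by this measure. When the tags were thinned to the background of fed liver and p under 1e-05 was used in place of q, 10 promoters were open in all 16. The threshold changed along with the depth, and fed liver itself had 34 open promoters in place of 37.

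**Figure D1:**
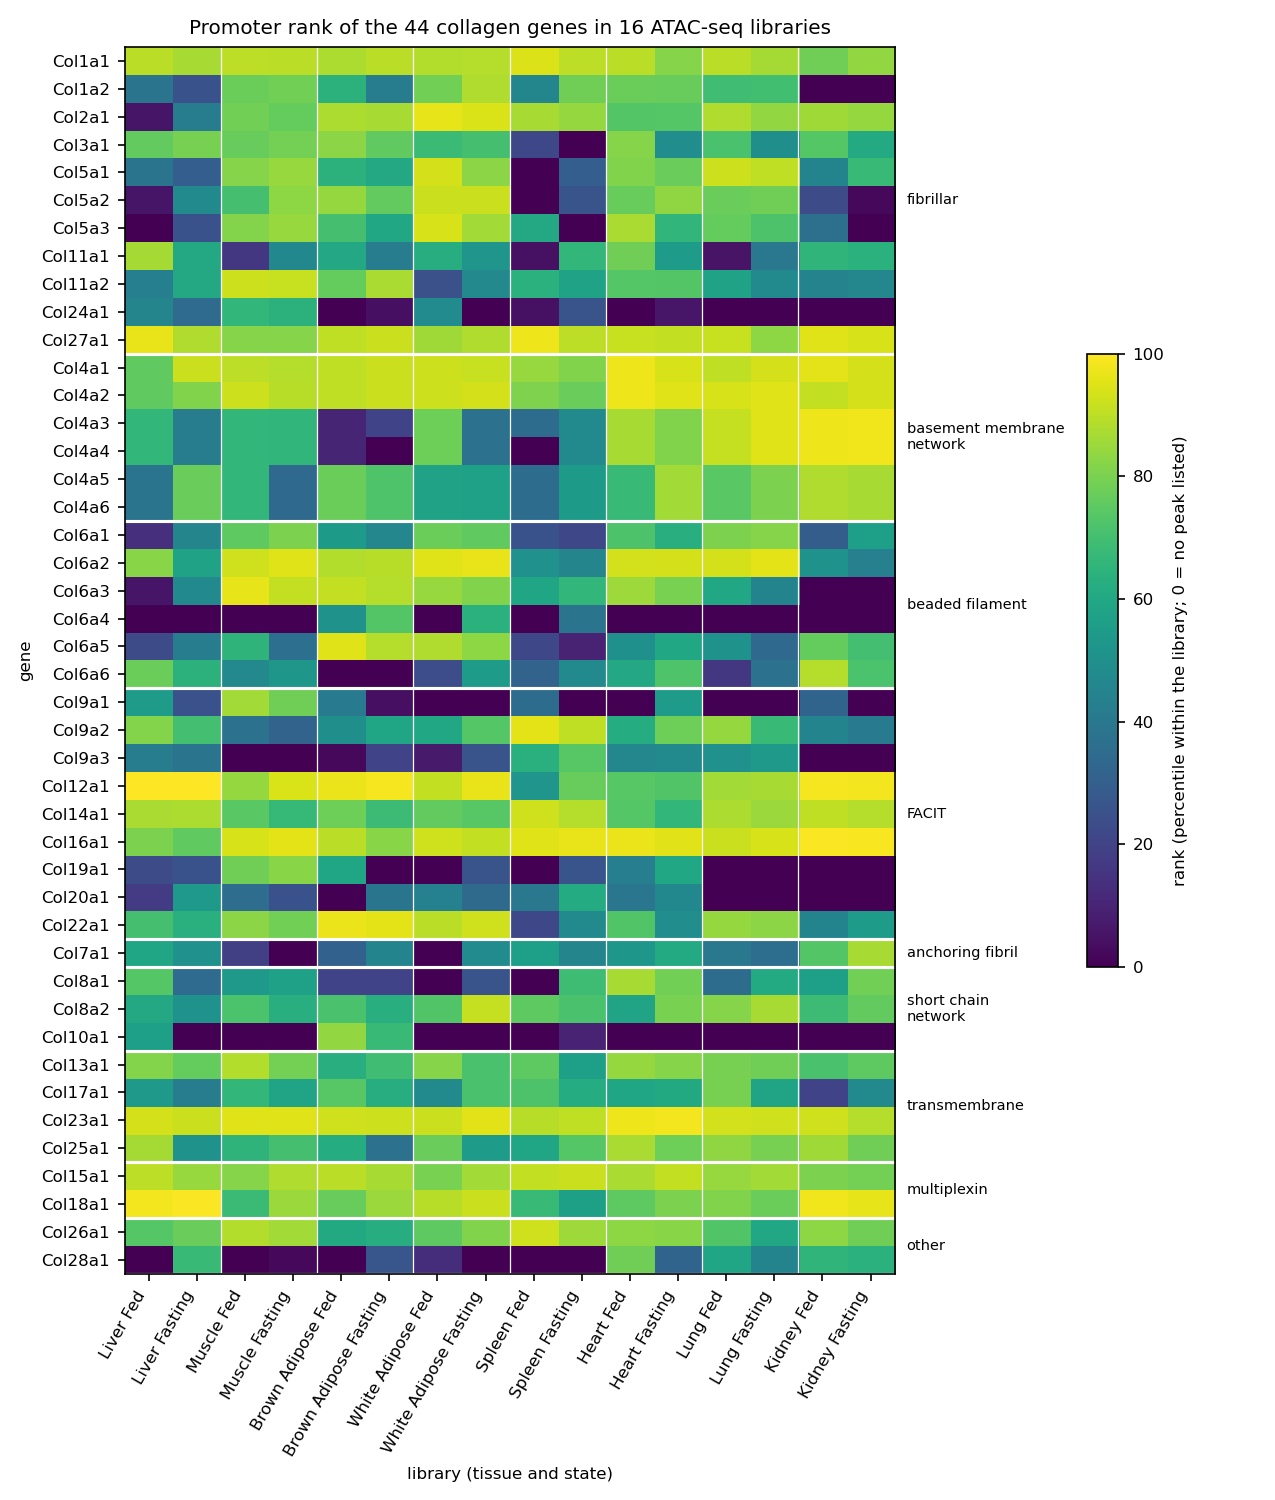
Promoter rank (color, percentile of the p-value within the library, 0 where no peak was listed) of the 44 collagen genes (rows, by class) in the 16 libraries (columns). Col23a1, Col27a1, Col15a1 and Col1a1 had lowest ranks of 89, 81.9, 79 and 78.2, while Col24a1, Col6a4, Col9a1, Col19a1 and Col10a1 were listed in 4 to 9 libraries each.

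The rank differed between tissues for 28 of 44 collagen genes (63.6%) in a limma fit with tissue and state over all 19719 genes (moderated F-test, adjusted p under 0.05), where 52.4% of all genes were called. By class these were 8 of 11 fibrillar, 3 of 6 basement membrane, 5 of 6 beaded filament, 7 of 9 FACIT, 1 of 3 short chain, 1 of 4 transmembrane and 1 of 2 multiplexin genes, with Col7a1 and Col26a1. The members' tissue means spanned a median of 58.2 percentile points, from 8.27 for Col23a1 to 93.5 for Col6a3. Between fed and fasting of the same tissue the absolute difference had a median of 5.84 points over the 352 pairs of gene and tissue. The span is the highest minus the lowest of 8 tissue means, and this is a single difference, so that they are unlike measures.

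By class median the fibrillar genes ranked highest in white adipose, at 86.9, and lowest in spleen (35.4) and liver (40.2). In brown adipose, muscle, heart, lung and kidney their medians were 79.0, 78.1, 76.5, 74.1 and 56.5. Class means did not put white adipose first. They were 74 fed and 78.2 fasting in muscle, against 75.6 and 71.8 in white adipose. Kidney (49.9 and 45.7) was near spleen (43.6 and 49.9) and liver (47.7 and 52.7) by mean. The median over all genes tested was between 89.8 (liver) and 93.2 (lung). Col1a1 and Col1a2 code for the chains of type I collagen, the main protein of skin, tendon and bone. The Col1a1 promoter was at 78.2 to 94.8 in all 16 libraries. Its summits, about 492 bp before an annotated start at 94937686, lay inside the gene, beyond the principal start at 94936224 on chromosome 11. The F-test over tissues gave an adjusted p of 0.131 (limma), although kidney was 7.77 points below the mean of the others (SE 2.12, adjusted p = 0.0399). From the highest tissue mean down, with fed before fasting as in all pairs of values, Col1a2 ranked 78.8 and 87.9 (white adipose), 77.6 and 78.6 (muscle), 77.5 and 76.9 (heart), 69.3 and 69.6 (lung), 45.9 and 78.3 (spleen), 64.3 and 41.9 (brown adipose), 38.4 and 25.3 (liver) and 0 and 0 (kidney), so that it was listed in neither kidney library. Kidney was 65.0 points below the mean of the other 7 tissues (limma, SE 8.15, adjusted p = 0.00147). The strongest liver peaks were nearest to internal starts, at 1708 bp (fed) and 859 bp (fasting) from them. Within 1000 bp of the principal start Col1a2 was listed in neither liver nor kidney. Without kidney its call between tissues was lost.

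Type V collagen starts the assembly of type I fibers, and its genes also separated the tissues. Col5a2 ranked 91.9 and 92.1 (white adipose), 84.3 and 76 (brown adipose), 76.6 and 83.4 (heart), 77.3 and 78.2 (lung), 70.7 and 83.1 (muscle), 5.5 and 47.4 (liver), 0 and 26.1 (spleen) and 23.1 and 2.3 (kidney). Liver, spleen and kidney thus lay below all libraries of the other 5 tissues. White adipose was 39.5 points above the mean of the other tissues (limma, SE 9.95, adjusted p = 0.0297), and kidney and spleen were 51.0 and 50.7 points below it (adjusted p = 0.0109 and 0.0112). Col5a1 ranked 92.4 and 90.6 in lung, 93.4 and 82.7 in white adipose and 82 and 84.4 in muscle, against 38.4 and 29.7 in liver and 0 and 29.7 in spleen. Lung was 31.8 points above the others for this gene (SE 7.51, adjusted p = 0.0236). Col5a3 ranked 93.9 and 86.3 in white adipose and 81.4 and 84.5 in muscle, against 0 and 25.3 in liver and 37.1 and 0 in kidney, while spleen was at 60.3 fed and 0 fasting. It ranked 70.6 and 59.9 in brown adipose, 87.2 and 65.8 in heart and 76.2 and 72 in lung. Its call was lost without white adipose.

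Col3a1, the type III chain of elastic organs, is 24614 bp from Col5a2 on chromosome 1. It ranked 75.8 and 79.5 in liver and 73.6 and 61.1 in kidney, and 21.5 and 0 in spleen, which was 60.3 points below the other tissues (limma, SE 6.87, adjusted p = 0.000924). In all but 4 of the 15 libraries that listed Col3a1, the strongest peak was 2515 to 2542 bp inside the gene from its start at 45311647, and in white adipose, fed spleen and fasting heart it was at the start itself. The call between tissues was lost without spleen. Within 1000 bp of the principal start it was listed in neither kidney library and ranked 23.4 and 12.6 in liver, 64.1 and 61.8 in muscle and 68.1 and 70.6 in white adipose.

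Type II and type XI chains make cartilage fibers, and none of the tissues is cartilage. The peak that ranked Col2a1 at 96.2 and 94.5 in white adipose and 87.7 and 86.9 in brown adipose was about 2582 bp before an internal start at 97990476 on chromosome 15, and was the strongest near the gene in 13 libraries. In kidney the strongest peak was near another internal start, at 98001887. Within 1000 bp of the principal start Col2a1 was listed in neither liver nor white adipose library, and ranked 67.2 and 51.1 in spleen and 29.2 and 73.7 in heart. Its call between tissues was lost with that window. Col11a2 ranked 92.4 and 91.5 in muscle, the highest tissue, and 24.7 and 47 in white adipose, the lowest. Muscle was 34.5 points above the others (limma, SE 5.76, adjusted p = 0.00545). Col24a1 was listed in 9 libraries and ranked 66.2 and 64.1 in muscle, 45.4 and 35 in liver and 0 in all lung and kidney libraries. Muscle was 53.1 points above the mean of the others (SE 10.2, adjusted p = 0.0104), and the call between tissues was lost without it. Col27a1, another minor fibrillar chain, ranked 81.9 to 97.3 in all 16 libraries. Col11a1 ranked 86.6 and 60.2 (liver), 78.3 and 55.2 (heart), 65.4 and 63.9 (kidney), 62.2 and 52.3 (white adipose), 60.5 and 41.9 (brown adipose), 4.4 and 66.4 (spleen), 16.4 and 46.8 (muscle) and 5.4 and 40.2 (lung). The states of a tissue were up to 62.0 points apart, and its tissue difference was not called (adjusted p = 0.383). A list of 4 chondrocyte markers, for the cells of cartilage, had means between 45.3 in spleen and 68.8 in liver, and its genes differed. Acan was at 23.8 or below in every tissue and Matn3 at 71.7 or above, while Sox9 ran from 4.82 in spleen to 92.5 in muscle and Hapln1 from 8.20 in muscle to 81.0 in spleen.

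**Figure D2:**
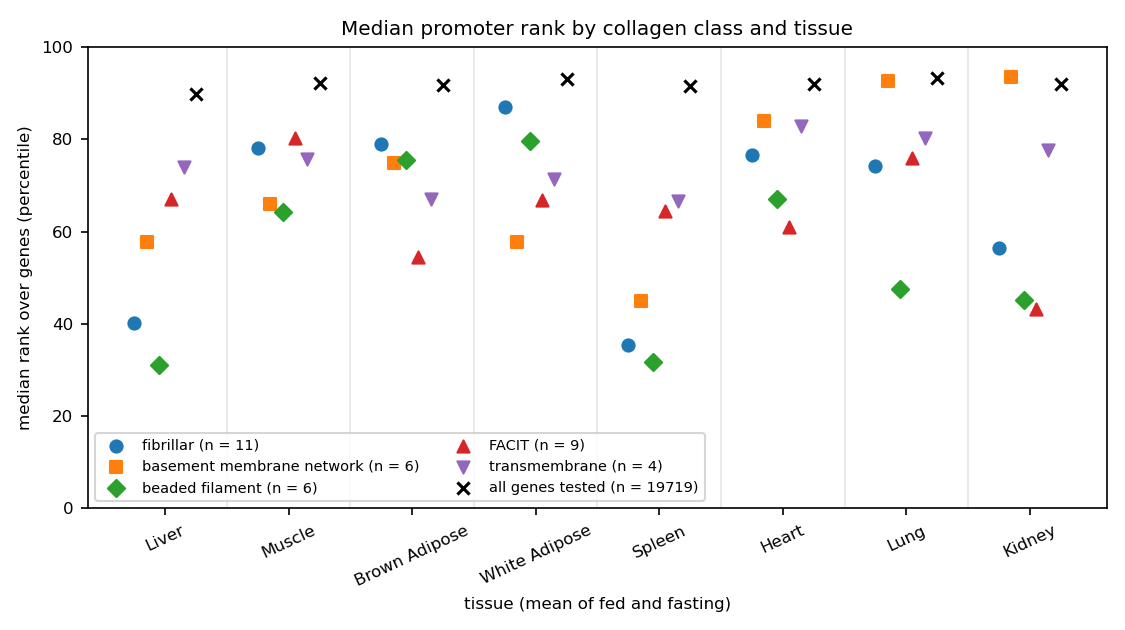
Median promoter rank (vertical axis, percentile) of the genes of 5 collagen classes and of all genes tested, in 8 tissues (horizontal axis, mean of fed and fasting). Fibrillar and beaded filament medians were 40.2 and 31.1 in liver and 35.4 and 31.6 in spleen, while the basement membrane median reached 93.4 in kidney and 92.7 in lung.

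Fibroblasts are the main source of fibrillar and type VI collagen, and a list of 6 fibroblast markers was read in the same libraries. Its mean rank was 34.2 and 24 in liver, 44.4 and 41.9 in spleen and 20.4 and 23.2 in kidney, against 62.1 and 79.6 in white adipose and 62.4 and 57.6 in heart. Muscle was at 51.4 and 52.9, brown adipose at 61.4 and 43.5 and lung at 45.9 and 46.2, and 0 to 3 of the 6 genes were unlisted per library, and the genes differed. Dpt and Twist2 were lowest in kidney, at means of 1.26 and 0, and 3 of the 6 genes were unlisted in both kidney libraries. Tcf21 was at 0 in muscle, Lum in liver and Dcn in spleen, but some of these genes were at 0 in other tissues too. Pdgfra was highest in liver, at 99.1, and 88.8 in spleen, its lowest tissue. A list of 6 mural and smooth muscle markers ran from 43.1 in kidney to 72.8 in lung, and a list of 4 Schwann cell markers from 53.6 in kidney to 71.3 in white adipose. The part of fibroblast number in the collagen ranks was not tested.

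The type IV genes lie in 3 head-to-head pairs, in which 2 chains are read in opposite directions from 1 short stretch of DNA. The closest starts were 21 bp apart for Col4a1 and Col4a2 on chromosome 8, 72 bp for Col4a3 and Col4a4 on chromosome 1 and 1309 bp for Col4a5 and Col4a6 on the X chromosome. A peak between a pair counts for both genes, so that their ranks were equal in 6, 14 and 16 of the 16 libraries and the 6 genes are not independent. Col4a1 and Col4a2 make the type IV chains of nearly all basement membranes. The other 4 make the chains of special ones, such as those of the kidney glomerulus and the lung alveolus, where faults in Col4a3, Col4a4 or Col4a5 cause Alport syndrome. The 300 bases around the midpoint of the starts of these 2 close pairs are shown because the pairs differed most in breadth (RefSeq, GRCm38.p6, read on the plus strand, with each CpG in capitals).
Col4a3 and Col4a4: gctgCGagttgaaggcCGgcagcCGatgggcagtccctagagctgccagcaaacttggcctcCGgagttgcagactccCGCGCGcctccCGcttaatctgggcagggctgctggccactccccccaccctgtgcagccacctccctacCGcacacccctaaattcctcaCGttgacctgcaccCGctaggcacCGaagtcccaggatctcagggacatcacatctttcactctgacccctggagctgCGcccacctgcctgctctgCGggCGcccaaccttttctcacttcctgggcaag
Col4a1 and Col4a2: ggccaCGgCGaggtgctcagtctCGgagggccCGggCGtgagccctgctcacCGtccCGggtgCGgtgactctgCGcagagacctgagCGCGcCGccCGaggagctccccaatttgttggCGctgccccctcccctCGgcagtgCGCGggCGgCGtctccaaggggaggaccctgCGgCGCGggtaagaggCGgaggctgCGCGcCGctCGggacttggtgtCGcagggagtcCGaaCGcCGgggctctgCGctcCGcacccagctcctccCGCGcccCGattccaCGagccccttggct
The first stretch is chr1:82586762-82587061, plus strand, and holds 15 CpG and neither CCAAT nor GGGCGG on either strand. The second is chr8:11312665-11312964, plus strand, and holds 37 CpG, 1 CCAAT and 2 GGGCGG.

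The peak between Col4a3 and Col4a4 was strongest in kidney, at 97.5 fed and 98 fasting, and in lung, at 91.2 and 95.3. It ranked 87.1 and 81 in heart, 66.2 and 65.9 in muscle, 66.4 and 42.1 in liver and 77.9 and 37.4 in white adipose. In spleen it was 0 and 47.7 and in brown adipose 10.3 and 0, so that the kidney and lung libraries lay above all others, while brown adipose and spleen overlapped at the low end. In the kidney the peak covered 82586434 to 82587610 in the fed library, with 9.15-fold enrichment and a −log10 p of 210. In fed brown adipose, the deepest library, it covered 82586737 to 82586921 with 2.91-fold enrichment. Kidney was 38.9 and lung 33.7 points above the mean of the other tissues for Col4a3 (limma, SE 9.16, adjusted p = 0.0234 and 0.0390), and brown adipose was 55.5 points below (adjusted p = 0.00523). The Col4a3 values also hold a peak nearest to another start, 817 bp from it in fasting brown adipose (20) and 2556 bp in fed spleen (35.5). For Col4a4 the brown adipose difference was called (63.0 points below, SE 12.96, adjusted p = 0.0136), while kidney and lung were not, and without brown adipose the call between tissues was lost.

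The peak between Col4a1 and Col4a2 was listed in all 16 libraries. It ranked 97.6 and 94.1 in heart, 90.6 and 93.6 in lung, 91.0 and 93.4 in kidney, 92.2 and 91.6 in white adipose, 90.4 and 90.1 in brown adipose and 90.1 and 88.8 in muscle. Liver was at 75.5 and 81.2 and spleen lowest at 40.3 and 33.3. Over all its starts Col4a2 was higher in heart by 7.93 and in lung by 6.08 points (limma, SE 1.63, adjusted p = 0.0136 and 0.0376), and lower in liver and spleen by 12.7 and 11.9 points (adjusted p = 0.00166 and 0.00220). Endothelial cells rest on a type IV membrane, and the endothelial marker list had its highest mean rank in heart (90.4) and lung (81.3) and its lowest in kidney (36.8). In spleen the list was at 60.4, where its genes Pecam1 and Cdh5 had their highest means (95.1 and 97.0) and Tek and Tie1 their lowest (10.8 and 55.0). Its part in these ranks was not tested. The strongest peak for Col4a5 and Col4a6 was within 1000 bp of the Col4a5 start in 15 libraries, and near the Col4a6 start in fed spleen. A separate, weaker peak was at the Col4a6 start in kidney (61.7 and 73.7) and lung (5.4 and 55.2). The strongest peak ranked 88.1 and 87.1 in kidney, 77.5 and 72.3 in brown adipose, 74.6 and 80.1 in lung, 67.5 and 86.3 in heart, 57.8 and 57.4 in white adipose and 35.5 and 54.4 in spleen. In liver it was 38.4 fed and 77 fasting, and in muscle 66.2 fed and 34.1 fasting. This tissue difference did not pass the test (limma, adjusted p = 0.181), although Col4a6 was called when only peaks within 1000 bp of a start counted.

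The genes of type VI collagen, a filament that links cells to the matrix, had class medians of 79.6 in white adipose and 75.5 in brown adipose, against 31.1 in liver and 31.6 in spleen. Col6a1 and Col6a2 are neighbors on chromosome 10, with 85161 bp between them. Col6a2 ranked 95.2 and 96.8 in white adipose, 93.4 and 95.9 in lung, 93.3 and 93.5 in heart and 92.7 and 95 in muscle. It ranked 50.5 and 45.4 in spleen and 51.4 and 43.6 in kidney, below every library of the other tissues. Spleen and kidney were 35.5 and 36.0 points below the mean of the others (limma, SE 4.64, adjusted p = 0.00179 and 0.00166). Col6a1 ranked 80.2 and 82 in lung and 13.4 and 45.4 in liver. Col6a3 had the widest range of all members. It ranked 96.1 and 90.9 (muscle), 90.7 and 88.9 (brown adipose), 85.5 and 80 (heart), 84.4 and 80.9 (white adipose), 58.8 and 66.4 (spleen), 59.4 and 45.3 (lung), 5.5 and 47.4 (liver) and 0 and 0 (kidney), where 0 means no listed peak. Kidney was 70.0 points below the others (limma, SE 8.65, adjusted p = 0.00137), and muscle 36.8 and brown adipose 32.6 points above (adjusted p = 0.0230 and 0.0360). Its muscle and adipose peaks were 2498 to 2589 bp before an internal start at 90773215 on chromosome 1. Within 1000 bp of the principal start Col6a3 ranked 69.4 and 50.3 in muscle and 84.1 and 77.7 in white adipose, and was listed in neither liver nor kidney.

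Col6a4, Col6a5 and Col6a6 form a cluster on chromosome 9 and code for chains that can take the place of the Col6a3 chain. Each had its own pattern. Col6a5 ranked 95.3 and 88.9 (brown adipose), 88 and 83 (white adipose), 76.3 and 70.3 (kidney), 50 and 60 (heart), 65.2 and 36.4 (muscle), 51.2 and 34 (lung), 23.4 and 42.1 (liver) and 21.5 and 9.6 (spleen). Both adipose tissues lay above all others. Brown adipose was 41.3 and white adipose 33.8 points above the mean of the rest (limma, SE 7.55, adjusted p = 0.00824 and 0.0189). Col6a6 ranked 88.7 and 71.7 in kidney, 77.7 and 64.3 in liver, 60.5 and 72.5 in heart, 47 and 53.1 in muscle, 23.6 and 55 in white adipose, 32 and 47.7 in spleen and 16.2 and 37.2 in lung, and was in neither brown adipose list. Kidney was 38.3 points above and brown adipose 53.4 points below the others (SE 8.44, adjusted p = 0.0180 and 0.00431). Col6a4 was listed only in both brown adipose libraries (51 and 73.1), fasting white adipose (63.7) and fasting spleen (38.6), and never within 1000 bp of its principal start. The adipose peaks were 2504 to 2536 bp before an internal start at 106013446. Brown adipose was 54.7 points above the rest (SE 12.3, adjusted p = 0.0192), and the F-test over tissues gave an adjusted p of 0.0676.

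Among the FACIT genes, Col9a2, Col12a1, Col14a1, Col16a1 and Col22a1 were open in all 16 libraries and Col9a1, Col9a3, Col19a1 and Col20a1 in 8 to 11. Col12a1, a chain of tendon and muscle sheath, ranked 99.7 and 99.8 in liver, 98.8 and 98.1 in kidney and 97.2 and 98.5 in brown adipose. These peaks, and those of white adipose (90.8 and 96.6), lay 2505 to 2581 bp beyond an internal start at 79612970 on chromosome 9, far from the main start at 79718518. Within 1000 bp of the main start the values were different, with liver at 75 and 59.2 and kidney lowest at 44.9 and 36.2, against 84 and 94.5 in muscle and 86.3 and 86.9 in lung. Col14a1 had its strongest peak 1223 to 1283 bp before a start in 12 libraries, and ranked 92.8 and 88.7 in spleen, 90.5 and 88.7 in kidney and 73.6 and 66.4 in heart. Its call was lost with the 1000 bp window. Col16a1 ranked 99.4 and 99.2 in kidney and 80.4 and 75.4 in liver, with kidney 8.47 points above and liver 15.9 below the others (limma, SE 1.74, adjusted p = 0.0134 and 0.000738). Within 1000 bp of the principal start Col16a1 was listed in neither spleen library, although it ranked 95 and 96.5 there over all its 13 starts.

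Col22a1 is known from tissue junctions such as that of muscle and tendon. Its promoter was highest in brown adipose, at 97.1 and 95.9, followed by white adipose at 89.5 and 92.8. It ranked 84.3 and 82.5 in lung, 82.6 and 78.6 in muscle, 72.7 and 49.2 in heart, 70.6 and 63.5 in liver, 45.2 and 55.1 in kidney and 21.5 and 47.7 in spleen. The summit was within 1000 bp of the start in all 16 libraries. Brown adipose was 29.6 points above the other tissues (limma, SE 7.22, adjusted p = 0.0264), and spleen was 41.1 points below (adjusted p = 0.00695). Col9a1 and Col19a1 are neighbors on chromosome 1, with 9205 bp between them, and both ranked highest in muscle. Col9a1 was at 86.1 and 78.4 in muscle and Col19a1 at 78.5 and 82.1, or 64.4 and 61.5 points above the other tissues (SE 15.7 and 13.8, adjusted p = 0.0266 and 0.0190). Neither was listed in lung. In fed and fasting libraries Col9a1 was at 54.9 and 25.3 in liver, 41.7 and 4.2 in brown adipose, 35.5 and 0 in spleen, 0 and 55.2 in heart and 32.2 and 0 in kidney, and unlisted in white adipose. Col19a1 was at 23.4 and 25.3 in liver, 59.3 and 0 in brown adipose, 0 and 26 in white adipose, 0 and 26.1 in spleen and 42.7 and 60 in heart, and unlisted in kidney. The F-test over tissues gave adjusted p = 0.101 for Col9a1 and 0.0495 for Col19a1, and the latter call was lost without any 1 of liver, muscle, white adipose, spleen, heart, lung or kidney. The muscle peak of Col9a1 lay at a second start group between 24195187 and 24197017. Col9a2 and Col9a3, the partner chains of type IX collagen, ranked highest in spleen, at 96 and 90.4 and at 63.5 and 73.9. Spleen was 33.1 and 44.8 points above the rest (SE 6.08 and 4.35, adjusted p = 0.00842 and 0.000412). Col9a3 was listed in neither muscle nor kidney. The strongest Col9a2 summit was over 1000 bp from every start in all 16 libraries, although weaker peaks were within 1000 bp of its first start group in 12, and the Col9a3 call was lost with the 1000 bp window.

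The remaining classes held genes open almost everywhere and genes with few peaks. Col23a1, a transmembrane chain, ranked 89 to 98.2 in all 16 libraries, with a small heart excess of 5.40 points (limma, SE 1.06, adjusted p = 0.0113) and a spleen mean 4.05 points below the others (adjusted p = 0.0347). Its call between tissues was lost without spleen and without heart. Col25a1, found in neurons, ranked 87.2 and 78.1 (heart), 85.8 and 78.2 (kidney), 83.4 and 79.6 (lung), 86.7 and 51.5 (liver), 65.2 and 70.5 (muscle), 58.8 and 73.6 (spleen), 77.3 and 55 (white adipose) and 62.1 and 37.7 (brown adipose). Neither it nor Col13a1 (56.6 to 88.4) passed the F-test of the main fit. Col13a1 was called with the 1000 bp window, with coding transcripts only and at principal starts. Col17a1, a chain of the plaques that hold skin cells to their base, ranked 79.5 and 58.3 (lung), 74 and 62.3 (brown adipose), 71.9 and 61.8 (spleen), 66.2 and 58.3 (muscle), 58.7 and 60.9 (heart), 47.4 and 71.2 (white adipose), 54 and 42.1 (liver) and 20 and 47.7 (kidney). The nearest start of each of these peaks was internal, but only 3 of the 16 summits were within 1000 bp of any start. In 10 libraries the summit was a median of 2618.5 bp beyond the start at 47649595. No peak was within 1000 bp of its principal start. Col7a1, which anchors the skin, ranked 73.2 and 86.8 (kidney), 53 and 61.2 (heart), 59.3 and 50.5 (liver), 56.6 and 45.6 (spleen), 31.1 and 45.3 (brown adipose), 40.1 and 36.1 (lung), 0 and 48.1 (white adipose) and 19.1 and 0 (muscle). Kidney was 41.0 points above the others (SE 10.7, adjusted p = 0.0345), with its peak 1539 and 1543 bp beyond an annotated start. Its call between tissues was lost when any 1 tissue except white adipose was left out, and with the 1000 bp window. Col7a1 was listed within 1000 bp of the principal start group in fed spleen (10.3) and both lung libraries (40.1 and 36.1). Col10a1, the marker of cartilage cells that precede bone, has 1 annotated start. Its promoter ranked 83.8 and 67.4 in brown adipose, with the summit 683 and 655 bp before the start. Other peaks of it lay 1940 bp (fed liver, 56.3) and 2496 bp (fasting spleen, 9.6) beyond the start, and no other library listed one. Brown adipose was 70.9 points above the others (limma, SE 10.6, adjusted p = 0.00327). The call was lost without brown adipose. Besides Col10a1, the members Col3a1, Col6a4, Col6a5 and Col22a1 had their highest tissue mean in brown adipose. Col8a1, a chain of vessel walls, ranked 86.9 and 78.6 (heart), 56.5 and 78.9 (kidney), 53.8 and 57.1 (muscle), 73.8 and 35 (liver), 35.2 and 61.1 (lung), 0 and 68.9 (spleen), 20.1 and 20 (brown adipose) and 0 and 26 (white adipose). Its adjusted p over tissues was 0.166. Of the unclassed genes, Col26a1 ranked 92.6 and 85.4 (spleen), 88.5 and 86 (muscle), 82.9 and 82.2 (heart), 83.1 and 78.5 (kidney), 75.2 and 81 (white adipose), 73.8 and 77 (liver), 72.8 and 59.7 (lung) and 60.9 and 62.3 (brown adipose). Its call was lost with the 1000 bp window. Col28a1 was listed in 10 libraries, at 78.3 and 32.1 in heart, 65.4 and 63.9 in kidney, 58.7 and 45.3 in lung, 0 and 67.6 in liver, 0 and 26.9 in brown adipose, 13 and 0 in white adipose and 0 and 2 in muscle. It had no peak in spleen and none within 1000 bp of its principal start in any library.

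Col18a1, the source of endostatin, ranked 98.4 and 99.5 (liver), 97.8 and 96.2 (kidney), 89.2 and 92.1 (white adipose), 76.9 and 85.1 (brown adipose), 81 and 77.4 (lung), 75.1 and 80.3 (heart), 68.2 and 85 (muscle) and 67.5 and 57 (spleen). Liver was 18.3 and kidney 16.1 points above the mean of the others (limma, SE 4.16, adjusted p = 0.0201 and 0.0326). The gene has alternative starts that give proteins with different amino ends, and the tissues differed in which start had the strongest peak within 1000 bp. The strongest liver peak of the gene was at none of them, but 2244 and 2496 bp before the start at 77089428. The 300 bases at 3 of its start groups, 250 before the start and 50 from it on, are shown with each CpG in capitals (RefSeq, GRCm38.p6, minus strand, in the order of transcription).
Col18a1 start 1: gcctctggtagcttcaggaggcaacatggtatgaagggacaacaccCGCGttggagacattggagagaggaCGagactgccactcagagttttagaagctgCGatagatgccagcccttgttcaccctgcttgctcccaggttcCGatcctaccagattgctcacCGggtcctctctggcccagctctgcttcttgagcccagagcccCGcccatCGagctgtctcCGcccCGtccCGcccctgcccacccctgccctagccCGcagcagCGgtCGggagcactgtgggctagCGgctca
Col18a1 start 2: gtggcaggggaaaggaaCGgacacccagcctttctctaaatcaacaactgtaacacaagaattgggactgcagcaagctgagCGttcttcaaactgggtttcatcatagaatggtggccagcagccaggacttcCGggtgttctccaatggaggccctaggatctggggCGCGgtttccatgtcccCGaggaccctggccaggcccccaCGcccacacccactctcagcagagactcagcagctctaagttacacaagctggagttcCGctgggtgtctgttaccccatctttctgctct
Col18a1 start 3: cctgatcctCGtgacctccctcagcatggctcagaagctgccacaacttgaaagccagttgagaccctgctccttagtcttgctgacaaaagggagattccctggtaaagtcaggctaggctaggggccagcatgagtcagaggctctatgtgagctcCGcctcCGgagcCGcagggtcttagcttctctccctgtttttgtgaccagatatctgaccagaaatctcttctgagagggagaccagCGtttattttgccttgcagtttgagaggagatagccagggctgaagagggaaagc
These are chr10:77166499-77166798 with 15 CpG and 3 GGGCGG, chr10:77113897-77114196 with 8 CpG and no GGGCGG, and chr10:77089379-77089678 with 5 CpG and no GGGCGG. At the first start the rank within 1000 bp was 97.8 and 96.2 in kidney, 82.1 and 60.8 in liver, 67.5 and 57 in spleen and 40 and 0 in brown adipose. At the second group, which holds the principal start, it was 96 and 90.3 in liver, 89.2 and 92.1 in white adipose and 75.4 and 85.1 in brown adipose, against 0 and 24.2 in kidney and 0 and 22.3 in spleen. At the last of the 3 it was 89 and 91.6 in white adipose, 81 and 77.4 in lung, 68.2 and 85 in muscle and 0 and 49.5 in liver. Within 1000 bp of a start, kidney and spleen thus ranked highest at the first start, and liver at the second. In white adipose all 3 starts ranked 88.5 to 89.2 when fed, and when fasting the first ranked 41.9 and the others 92.1 and 91.6. Ranks of single starts were not tested.

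Other members also ranked highest at different starts in different tissues, counting peaks within 1000 bp of a start. The shared Col4a1 and Col4a2 promoter was weak in spleen, but a second Col4a2 start at 11404908 ranked 80.7 and 77.2 there, above its 40.3 and 33.3 at the first start. Another start, at 11441109, ranked 92.3 and 89.1 in muscle and was unlisted in liver, white adipose, lung and kidney. Col15a1, the other multiplexin, ranked 90.9 and 92 (spleen), 87.2 and 91 (heart), 89.7 and 87.1 (brown adipose), 90.2 and 84.7 (liver), 84.4 and 86.3 (lung), 81.8 and 88.2 (muscle), 80 and 86.3 (white adipose) and 80.1 and 79 (kidney) over all its starts. It had no peak at its first start in liver and ranked 82 and 84.7 at start group 3, from 47258535. In spleen and lung start group 5 at 47303722 ranked highest, at 87.7 and 92 and at 80.2 and 56.8, and the strongest peak of the gene was farther from any start in both lung libraries and in fed spleen. In heart the first start ranked 82.5 and 71.8. For Col6a6 the first start ranked 88.7 and 71.7 in kidney and 60.5 and 72.5 in heart, while in liver a second at 105809648 ranked 77.7 and 64.3. Col8a2, a chain of the cornea and vessel wall, had a second start at 126300530 that ranked 75.1 and 71.4 in spleen and 65.1 and 54.4 in lung, and was unlisted in liver, brown adipose and kidney.

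**Figure D3:**
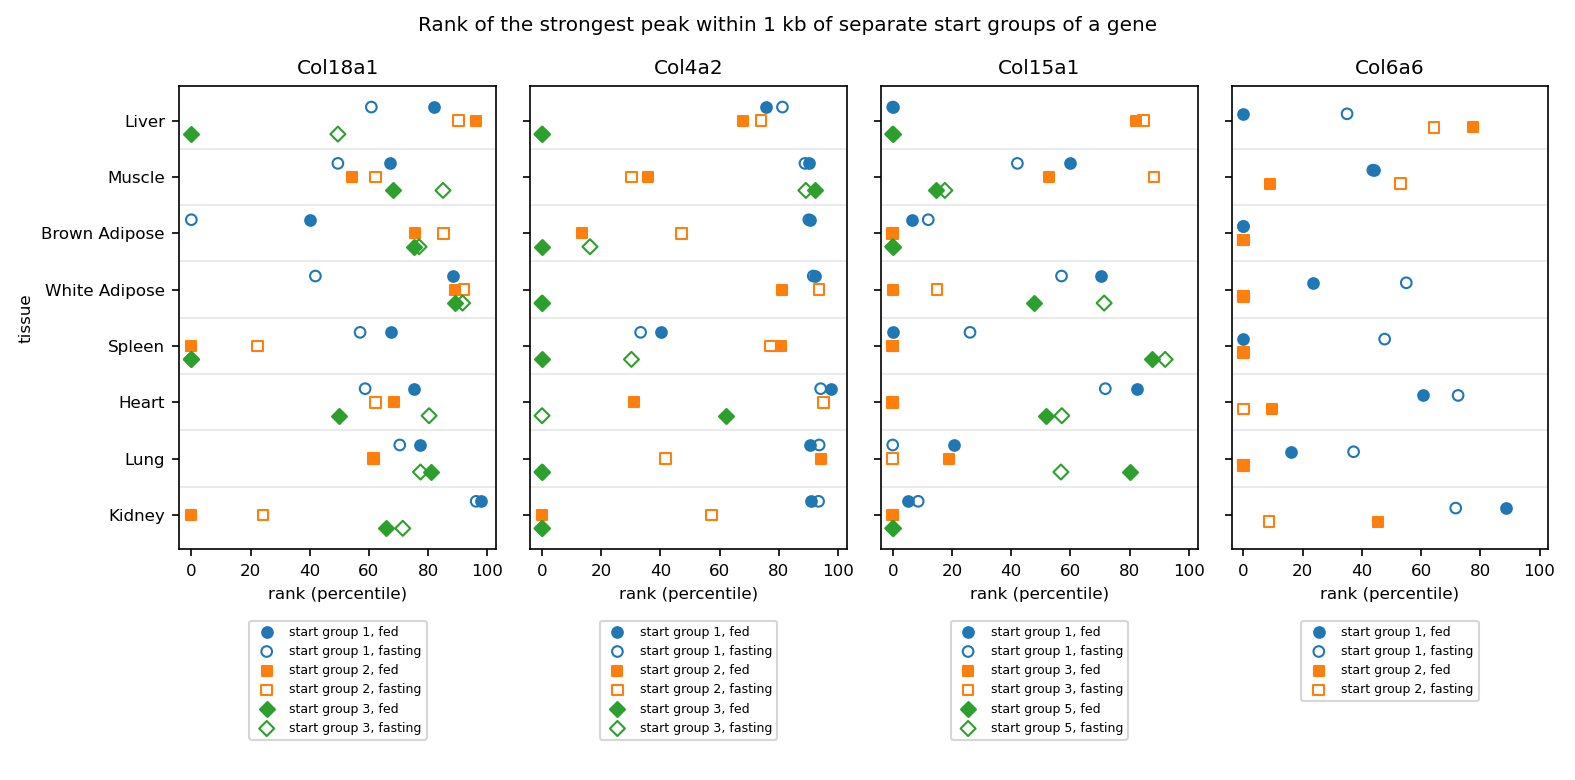
Rank (horizontal axis, percentile) of the strongest peak within 1000 bp of separate start groups of Col18a1, Col4a2, Col15a1 and Col6a6, by tissue (vertical axis). Filled symbols are fed and open symbols fasting libraries, groups are numbered in the order of transcription, and 0 means that no peak was listed. For Col18a1 kidney ranked highest at group 1 (97.8 and 96.2) and liver at group 2 (96 and 90.3), while a stronger liver peak (98.4 and 99.5) was over 1000 bp from every start and is not drawn.

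Set against the mean of the other 7 tissues, 41 pairs of gene and tissue were called higher and 45 lower (limma, adjusted p under 0.05 over all genes and 8 tissues together). In liver 2 members were higher, where 9.88% of all genes were, and 10 lower, where 21% were. In muscle 7 were higher (all genes 7.71%) and 5 lower (11%), in brown adipose 6 higher (5.72%) and 7 lower (11%), and in white adipose 5 higher (7.61%) and 1 lower (4.85%). In spleen 4 were higher (11.7%) and 11 lower (15.1%), in heart 4 higher (6.99%) and 2 lower (7.96%), in lung 7 higher (7.56%) and 1 lower (4.17%), and in kidney 6 higher (9.24%) and 8 lower (9.42%). As shares of the 44 members the counts of higher genes ran from 4.55% in liver to 15.9% in muscle and lung. The 5 higher in white adipose were Col1a2, Col5a1, Col5a2, Col6a2 and Col6a5, all of them fibrillar or beaded filament chains. The 10 lower in liver were Col1a2, Col2a1, Col5a1, Col5a2, Col5a3, Col6a1, Col6a3, Col6a5, Col4a2 and Col16a1. Ranking by fold in place of p lowered the count of higher pairs to 17.

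The promoter sequences were compared with the ranks over the 44 principal starts, with the most upstream where a gene has several. The 300 bases held a median of 11.5 CpG in collagen genes and 12 in all 21938 genes. The 11 promoters open in all libraries within 1000 bp had a median of 24 CpG and the other 33 a median of 10, where all genes had 21 and 4. Spearman's rho between CpG count and the mean rank over the 16 libraries was 0.58 over the 44 genes and 0.72 over all genes, as a description, since pairs share sequence and all ranks come from the same libraries. GGGCGG, on either strand, was in 56.8% of collagen and 45.3% of all promoters, and CCAAT, on either strand, in 38.6% of both. GGGCGG itself holds a CpG. TATAAA, in the bases 40 to 16 before the start on the coding strand, was in 2 collagen promoters, Col10a1 and Col17a1, or 4.55%, and in 2.43% of all. The windows below go from 250 bases before to 50 after the start and are shown because they run from a promoter open in every library to 1 open in none (RefSeq, GRCm38.p6, in the order of transcription, CpG in capitals).
Col23a1: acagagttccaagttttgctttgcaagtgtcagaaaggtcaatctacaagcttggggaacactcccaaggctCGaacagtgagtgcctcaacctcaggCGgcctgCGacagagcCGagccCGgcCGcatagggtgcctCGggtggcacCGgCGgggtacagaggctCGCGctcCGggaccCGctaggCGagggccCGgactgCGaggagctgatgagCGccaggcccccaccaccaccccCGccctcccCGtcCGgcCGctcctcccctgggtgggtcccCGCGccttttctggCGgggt
Col22a1: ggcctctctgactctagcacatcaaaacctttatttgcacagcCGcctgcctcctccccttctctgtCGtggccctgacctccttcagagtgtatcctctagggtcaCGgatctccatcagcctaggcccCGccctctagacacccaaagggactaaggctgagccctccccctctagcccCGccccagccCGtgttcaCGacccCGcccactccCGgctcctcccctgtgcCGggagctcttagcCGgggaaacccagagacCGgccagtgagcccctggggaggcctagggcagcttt
Col6a5: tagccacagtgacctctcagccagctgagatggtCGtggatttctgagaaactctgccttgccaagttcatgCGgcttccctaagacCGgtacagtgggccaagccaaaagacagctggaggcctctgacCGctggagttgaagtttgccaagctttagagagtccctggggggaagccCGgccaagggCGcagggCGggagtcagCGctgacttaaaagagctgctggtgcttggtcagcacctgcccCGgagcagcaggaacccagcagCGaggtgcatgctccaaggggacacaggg
Col1a2: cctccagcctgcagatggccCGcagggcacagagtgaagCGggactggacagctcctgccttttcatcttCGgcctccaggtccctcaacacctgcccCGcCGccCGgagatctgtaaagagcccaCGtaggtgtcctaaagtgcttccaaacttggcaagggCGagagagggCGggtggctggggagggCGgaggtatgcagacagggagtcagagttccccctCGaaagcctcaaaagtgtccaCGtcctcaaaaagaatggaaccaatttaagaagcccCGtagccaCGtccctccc
Col5a2: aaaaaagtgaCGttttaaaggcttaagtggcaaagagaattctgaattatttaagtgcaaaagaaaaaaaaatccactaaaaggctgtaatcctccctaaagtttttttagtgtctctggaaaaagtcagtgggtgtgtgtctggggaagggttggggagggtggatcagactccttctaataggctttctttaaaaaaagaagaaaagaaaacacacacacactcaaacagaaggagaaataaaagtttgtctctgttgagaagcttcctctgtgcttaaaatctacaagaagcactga
Col10a1: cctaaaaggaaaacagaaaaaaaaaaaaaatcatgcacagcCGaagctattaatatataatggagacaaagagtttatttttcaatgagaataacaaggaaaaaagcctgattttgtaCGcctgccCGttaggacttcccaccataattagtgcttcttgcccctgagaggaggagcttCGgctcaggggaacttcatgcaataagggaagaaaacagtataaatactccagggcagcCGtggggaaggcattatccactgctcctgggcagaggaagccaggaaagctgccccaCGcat
Col17a1: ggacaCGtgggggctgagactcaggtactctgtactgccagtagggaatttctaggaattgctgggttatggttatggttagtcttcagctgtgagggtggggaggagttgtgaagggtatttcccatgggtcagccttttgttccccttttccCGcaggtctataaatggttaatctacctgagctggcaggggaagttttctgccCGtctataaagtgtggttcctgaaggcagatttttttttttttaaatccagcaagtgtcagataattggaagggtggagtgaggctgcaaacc
Col23a1 (chr11:51289670-51289969, plus strand), with 24 CpG, was open in 16 libraries. Col22a1 (chr15:72034178-72034477, minus strand) has 12 CpG and 3 GGGCGG, and was also open in 16. Col6a5 (chr9:105960594-105960893, minus strand), with 10 CpG, was open in 15 libraries, and Col1a2 (chr6:4505243-4505542, plus strand), with 14 CpG and 3 GGGCGG, in 12. Col5a2 (chr1:45503233-45503532, minus strand) has 1 CpG and 37% G or C, yet was open in 14. Col10a1 (chr10:34389731-34390030, plus strand), with 6 CpG, was open in the 2 brown adipose libraries, and Col17a1 (chr19:47692045-47692344, minus strand), with 3 CpG, in none. Col6a2, with 6 CpG, was open in 16, whereas Col2a1, with 22, was open in 9 and Col7a1, with 12, in 2.

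**Figure D4:**
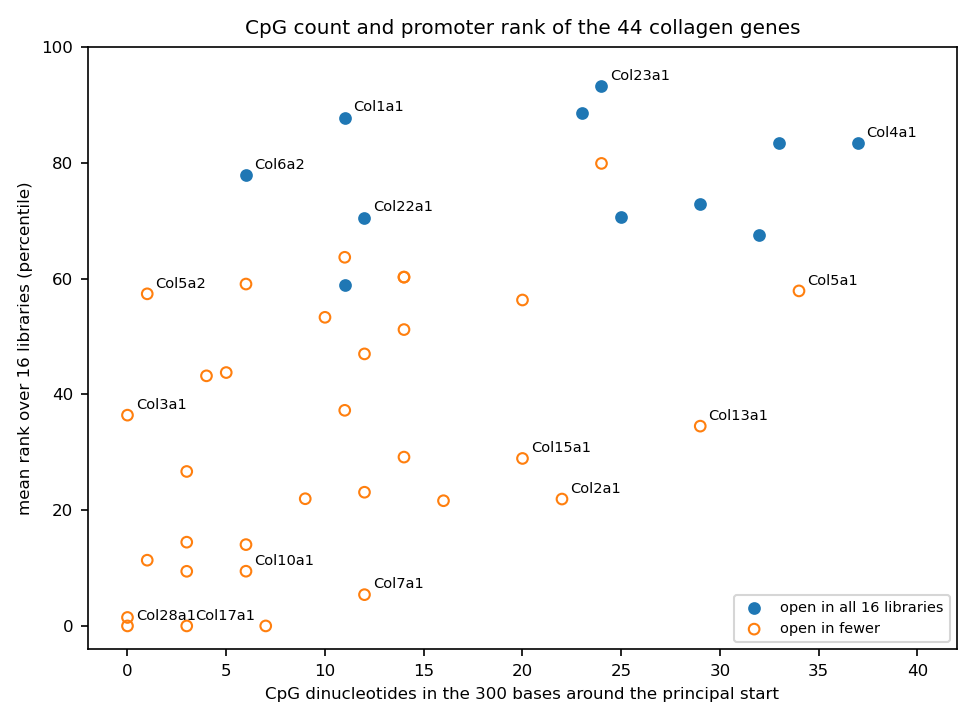
Mean rank over the 16 libraries within 1000 bp of the principal start (vertical axis, percentile) against the number of CpG in the 300 bases around that start (horizontal axis), 1 point per collagen gene. The 11 genes open in all libraries (filled) had 6 to 37 CpG. Col5a2 had a mean rank of 57.4 with 1 CpG, and Col2a1 a mean rank of 21.9 with 22.

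Collagen genes are long, with a median length of 114 kb against 17.4 kb for all protein-coding genes, and hold many open regions away from their starts. Regions inside a member and more than 3000 bp from each of its starts numbered 186 (fasting brown adipose) to 331 (fed liver) per library, with a median of 273.5. This was 3.47 to 6.17 per 100 kb, against 4.94 to 9.11 inside all genes, and lower in 16 of 16 libraries. In 43 of 44 genes at least 1 library held such a region, Col9a2 being the exception. A region in a nested gene counts here too. The density was highest in Col4a2, with a median of 34.5 regions over 136 kb, or 25.3 per 100 kb. It held a mean of 41.5 regions in heart and 40.5 in lung, against 16.5 in liver. Col4a3 held 21.5 in kidney and 12 in lung and 1.5 in brown adipose. Col23a1 was open at its promoter everywhere but held 41 regions in lung and 30 in spleen, against 8.5 to 15 in the other 6 tissues. Col25a1 held 25.5 in liver and 17 in spleen, against 1.5 in muscle, and Col26a1 21 in spleen against 4 to 7.5 elsewhere. Col6a3 held 12.5 in muscle and 9.5 in white adipose, against 0.5 in kidney.

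Other genes of the collagen pathway were open more widely. Of 43 such genes, 36 (83.7%) were open in all 16 libraries, and the rank differed between tissues for 30 (69.8%; limma, adjusted p under 0.05). Over all genes these shares were 59.9% and 52.4%. Among genes for the enzymes that modify proline and lysine, 7 of 15 were called, with a range of tissue means from 98.3 in kidney to 58.5 in spleen for P3h2. All 4 genes for chaperones and export were called. Serpinh1, the collagen chaperone, had means of 94.7 in lung and 29.1 in liver, and Sparc 96.7 in brown adipose and 62.4 in liver. All 7 genes for cutting the propeptides were called, with Adamts2 at 96.0 in heart and 43.0 in spleen and Pcolce at 79.9 in heart and 27.0 in liver. Of the crosslinking oxidases 2 of 5 were called, and Loxl1 had 93.4 in brown adipose and 36.8 in liver. Of the receptors 6 of 7 were called, with Ddr2 at 75.0 in white adipose and 9.06 in liver. Of the collagenases and gelatinases 4 of 5 were called, with Mmp2 at 90.9 in brown adipose and 0 in kidney. None of the 43 was called between fasting and fed, and 2 had an unadjusted p under 0.05.

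Fasting was compared with feeding in the same fit, with the 8 tissues as the pairs. No collagen gene passed (limma, adjusted p under 0.05), and neither did any of the 19719 genes (0%). At an unadjusted p under 0.05 there were 2 collagen genes, against 4.14% of all genes. Col14a1 had a mean of 82.5 fed and 78.3 fasting, a difference of -4.27 points (SE 1.19, unadjusted p = 0.00750, adjusted p = 0.818), and was lower in fasting in 7 of 8 tissues. The exact sign-flip permutation test gave two-sided p = 0.0156 for it, where the smallest possible is 0.00781. Col3a1 was at a mean of 69.0 fed and 58.1 fasting, a difference of -10.9 (SE 4.54, unadjusted p = 0.0441, adjusted p = 0.818), lower in 5 of 8 tissues, and 0.0703 by the exact sign-flip permutation test. The median shift of the members, fasting minus fed, lay between -3.89 points in liver and 1.19 in spleen, against -0.13 to 0.03 for all genes. In liver 19 members ranked higher in fasting and 24 lower, and in spleen 23 and 20.

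Single tissues held large differences that a pair of libraries cannot test. Among promoters listed in both states, the largest differences toward fasting were Col11a1 in spleen, from 4.37 to 66.4, Col5a2 and Col6a3 in liver, each from 5.51 to 47.4, and Col4a5 and Col4a6 in liver, from 38.4 to 77.0 at 1 shared peak. The largest toward feeding were Col28a1 in heart, from 78.3 to 32.1, Col4a3 and Col4a4 in white adipose, from 77.9 to 37.4 at 1 shared peak, Col8a1 in liver, from 73.8 to 35, and Col9a1 in brown adipose, from 41.7 to 4.18. Each value is a gene's strongest peak, which could be another peak in the other state. The Col11a1 and Col5a2 peaks were separate regions in the 2 states (Col5a2 45502388 to 45502522 fed and 45502939 to 45503065 fasting). For Col28a1 and Col9a1 only the fasting peak was within 1000 bp of a start, and for Col6a3 only the fed one. The 3 tissues with the most members shifted by 20 points or more were liver (9 up and 8 down), spleen (12 up and 3 down) and white adipose (7 up and 4 down). Liver and spleen were the shallowest libraries, with 2.80 to 3.35 background tags, and the part of depth was not tested.

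A promoter was counted as gained when it was open in fasting with no listed peak in the fed library, and as lost in the reverse case. Over the 8 tissues there were 17 gains and 11 losses. In spleen 7 members were gained (16.3% of the 43 listed in either state, against 4.13% of all genes) and 3 lost (6.98%, against 3.68%). The gained ones were Col8a1 (68.9 in fasting), Col4a4 (47.7), Col6a4 (38.6), Col5a1 (29.7), Col5a2 and Col19a1 (26.1 each) and Col10a1 (9.65), and the lost ones Col5a3 (60.3 in fed), Col9a1 (35.5) and Col3a1 (21.5). The Col5a1 peak was 2314 bp from an internal start at 28017441. The members' median rank in spleen was 51.2 fed and 57.4 fasting, against 91.8 and 91.4 over all genes tested. The part of these lower ranks in the shares was not tested. In white adipose 4 were gained (9.52%, against 2.6%), namely Col6a4, Col7a1, Col8a1 and Col19a1, and 2 lost (4.76%, against 4.18%), Col24a1 and Col28a1. In liver Col5a3 and Col28a1 were gained (all genes 3.13%) and Col10a1 lost (5.1%). In brown adipose Col20a1 and Col28a1 were gained (1.93%) and Col4a4 and Col19a1 lost (2.46%). In muscle Col28a1 was gained (1.41%) and Col7a1 lost (2.35%). Heart gained Col9a1 (2.24%) and lost none (2.31%), lung had neither a gain (1.58%) nor a loss (2.28%), and kidney gained none (1.7%) and lost Col5a3 and Col9a1 (1.38%). Col28a1 was gained in 3 tissues, Col6a4, Col8a1 and Col19a1 in 2, and Col5a3 and Col9a1 were lost in 2. Among the 50000 strongest regions of each library there were 0 gains and 0 losses. The gained and lost peaks all ranked 68.9 or below, so that this threshold leaves such weak peaks out. By the definition above, a change of rank between listed peaks is neither a gain nor a loss.

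**Figure D5:**
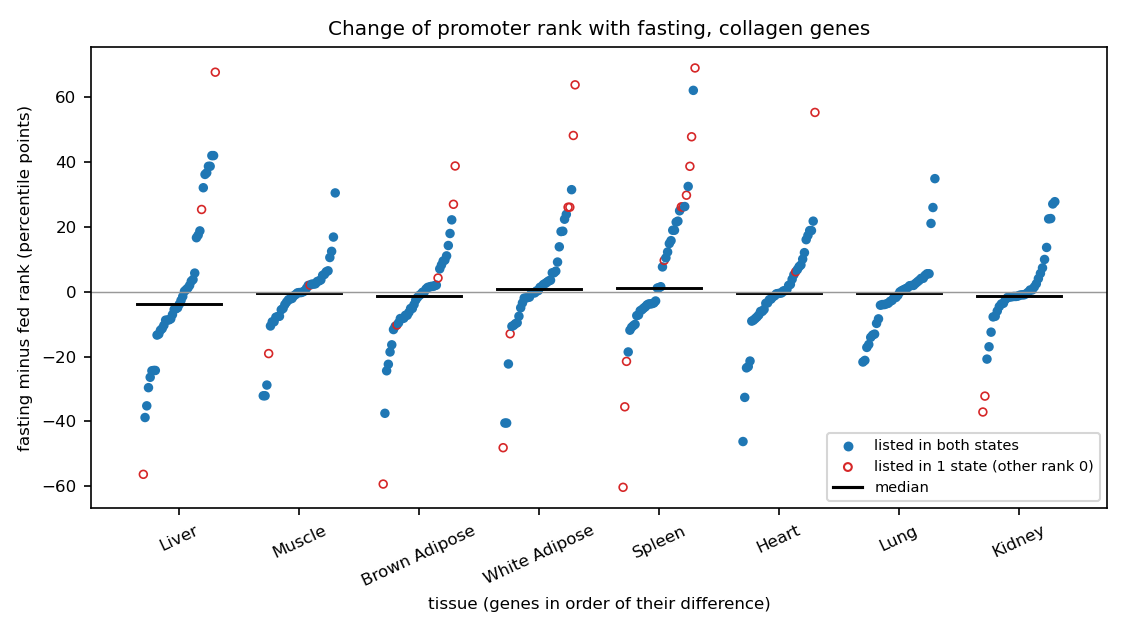
Fasting minus fed promoter rank (vertical axis, percentile points) of the collagen genes in each of 8 tissues (horizontal axis), 1 point per gene listed in either state. Open red circles are genes listed in 1 state, black bars are medians, which lie between -3.89 and 1.19, and points beyond 40 in either direction occur in liver, brown adipose, white adipose, spleen and heart.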

How the data were processed

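ATAC-seq was done on 8 tissues, 1 pooled library per tissue and state. Per the labels and the study's methods, the authors aligned trimmed reads to GRCm38 with Bowtie2, removed duplicates and called peaks with MACS2 (versions not given in the sources used here). The deposited peak lists give the fold ratio over expected tags, the −log10 p, the −log10 q and a display score per summit, and hold 298996 to 299529 rows each, so that weak peaks are cut at a different p in each library. Neither fold nor p is scaled between libraries, and read depth is not stated. The score was not used.

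A gene's rank was the percentile of the −log10 p of its strongest summit within 3000 bp of any GENCODE vM21 start. Ranks were fitted with limma 3.58.1 (R 4.3.3) on tissue and state over 19719 protein-coding genes, with Benjamini-Hochberg adjustment. The replication over tissues is the pair of states, with 7 residual degrees of freedom. The fit was also run on simulated data with independent normal noise. Such data lack the bounds, the zeros and the ties of the ranks, so that the run does not check the fit for these. Named genes were, per class, those with the widest tissue range, pairs with a shared promoter, the largest differences between states and repeated gains or losses. The members and lists were chosen with earlier results of these data known. Background tags, proportional to depth, were derived from fold and p. Alternatives were the window, starts, q, strongest regions, thinning of tags (p under 1e-05), ranking measure and leaving out tissues. Principal starts were added after seeing the data.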

Additional observations from a re-analysis of the deposited data

Results flagged for a closer look

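In 7 of the 44 collagen genes a promoter was open in 1 state and unlisted in the other in several tissues, with opposite directions. The share of all genes with such opposite changes was not counted, so that 7 cannot be called many or few. Per tissue, 1.41% to 4.13% of all genes were gained and 1.38% to 5.1% lost. The difference between the tissues was not tested, since each state had 1 library.

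Col10a1 ranked 56.3 in fed liver and was unlisted in fasting liver, and ranked 9.65 in fasting spleen and was unlisted in fed spleen. Col19a1 was at 59.3 in fed brown adipose only, against 26.1 in fasting spleen and 26 in fasting white adipose only. Col28a1 was listed in fasting and not fed brown adipose (26.9), liver (67.6) and muscle (1.99), and in fed and not fasting white adipose (13). Col4a4 was at 10.3 in fed brown adipose and 47.7 in fasting spleen. Col5a3 was at 25.3 in fasting liver, 37.1 in fed kidney and 60.3 in fed spleen. Col7a1 was at 19.1 in fed muscle and 48.1 in fasting white adipose. Col9a1 was at 55.2 in fasting heart, 32.2 in fed kidney and 35.5 in fed spleen. In each of these pairs the other state of the tissue listed no peak.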

How the results depend on the processing

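The count of collagen genes called between tissues was 28 and ranged from 24 (without spleen) to 30 when each tissue was left out, and 15 genes were called under every setting. Over the other alternatives it was lowest at 23 when ranked by fold (43.7% of all genes called) and highest at 31 when ranked among promoters (66.2%). Some genes not called in the main fit were called under other settings. Col4a1, Col13a1 and Col15a1 were called with the 1000 bp window, with coding transcripts and at principal starts. Col4a6 was called with either 1000 bp setting, and Col1a1 and Col9a1 when ranked among promoters. The count between fasting and fed stayed at 0, also when each tissue was left out (0 to 0). Promoters open in all 16 libraries numbered 22, but 8 at q under 1e-06, 7 among the 50000 strongest regions, 10 after tags were thinned to the lowest background with p under 1e-05 in place of q, and 11 at principal starts within 1000 bp. The median open per library was 39, and 24.5 among the 50000 strongest. The 17 gains and 11 losses became 3 and 5 at q under 1e-06, 0 and 0 among the 50000 strongest, 30 and 37 after thinning (counted as open in 1 state and not open in the other), 29 and 19 with a 1000 bp window and 29 and 18 at principal starts within 1000 bp. Pairs called higher in 1 tissue fell from 41 to 17 when ranked by fold. Intragenic regions fell from 273.5 to 135.5 at q under 1e-06 and 69.5 among the 50000 strongest.

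Ranked among promoters in place of all peaks, class medians were 17.5 (fibrillar), 18.8 (basement membrane), 10.9 (beaded filament), 15.9 (FACIT), 9.66 (anchoring fibril), 12.6 (short chain), 19.3 (transmembrane), 28.4 (multiplexin) and 15.8 (other). With a 1000 bp window they were 24.8 for FACIT, 16.1 for anchoring fibril, 66.3 for transmembrane, 75.7 for multiplexin and 31.3 for other. At principal starts within 1000 bp they were 22.7, 0, 50.01, 45.7 and 8.70 for the same classes. Transmembrane was at 83.2 when ranked by fold, and multiplexin at 72.1 with coding transcripts and 50.6 at principal starts within 3000 bp. Apart from the alternatives' own construction, the cause was not tested. Depth and the row limit of the lists bound what a missing peak can show.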
